A study of Mus musculus with 6 samples.

Results

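The genes described here encode the constant parts of mouse antibodies and the J chain. They are the heavy chain genes Ighm, Ighd, Ighg1, Ighg2b, Ighg2c and Igha, the light chain genes Igkc, Iglc1 and Iglc2, and Jchain, 10 genes of 55487 in the deposited tables. They were found by mapping Ensembl identifiers to gene symbols. They were picked because their reads had been seen to differ between the knockout and control libraries of this study. The KO against WT values of these 10 genes are therefore a description, with no test. The series measured RNA in heart cells to ask how expression is altered when myeloid cells lack Egfr, the gene of the epidermal growth factor receptor.

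The KO group (Egfr mKO) had 3 libraries from mice in which EGFR was deleted in myeloid cells only. The WT group (Egfr f/f) had 3 libraries from mice with floxed Egfr that was left intact. Both were on the C57BL/6 strain. Each library pooled the hearts of several mice. The titles list 5 numbers for 5 pools and 6 for KO pool 3, which were read as the animals pooled. Hearts were digested, myocytes were left behind, and the remaining cells were enriched on magnetic beads against Cd11b, the myeloid integrin chain encoded by Itgam. The promoter that drove the deletion, the age and sex of the mice and the purity after the beads are not given in the labels.

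An antibody is built of heavy and light chains, and the constant part of the heavy chain sets its class. A resting B cell makes IgM and IgD, and class switching joins the variable part to a constant gene farther along the locus, for IgG or, at its far end, IgA. Plasma cells are the secreting descendants of B cells, and J chain links IgA into dimers and IgM into pentamers. Only cells of the B lineage assemble complete antibody genes, whereas macrophages bind antibodies through Fc receptors. In bulk RNA, fewer or more cells of a type and less or more RNA per cell cannot be told apart.

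IgA and IgM share the site at which J chain is attached, a cysteine in the tail of the secreted heavy chain. The tails are shown because the results below turn on these genes together with Jchain. They are the last 60 coding bases before the stop codon of the secreted transcripts, 5′ to 3′ on the minus strand of GRCm38 (GENCODE M21), with the last cysteine codon in capitals. Igha lies at chr12:113258771-113258830 and Ighm at chr12:113420870-113420929.
Igha: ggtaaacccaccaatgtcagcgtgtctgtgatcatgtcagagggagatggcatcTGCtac
Ighm: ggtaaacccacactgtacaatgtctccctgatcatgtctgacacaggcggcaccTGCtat
The tails matched at 41 of 60 bases (68.3%), with the cysteine codon at the same place, 1 codon before the end. Over the whole coding sequence Igha and Ighm were 47.6% identical, and no 50-base stretch of either transcript occurred in another gene, so reads of one are not expected to be counted for the other.

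Libraries held 27485129, 25199667 and 25961210 gene reads in KO pools 1 to 3 and 27104205, 17780707 and 21356194 in WT pools 1 to 3. Levels are read counts scaled to library size with TMM factors (CPM), given per pool in the order of pools 1, 2 and 3. Egfr stood at 18.5, 15.95 and 17.4 CPM in KO pools, against 54.7, 43.0 and 44.7 in WT pools (log2 fold change -1.46, edgeR adjusted p = 0.0449), in the labelled direction. The myeloid lysozyme gene Lyz2 stood at 17.4, 19.2 and 19.3 CPM in KO pools and 6700, 4074 and 4327 in WT pools (log2 fold change -8.08, edgeR adjusted p = 0.000178). These were the only 2 of 15707 tested genes past an adjusted p of 0.05 in the edgeR test, and both fell. Egfr lost the call when any pool but WT pool 1 was left out (edgeR adjusted p = 0.113 to 0.353), while Lyz2 kept it in each case. The bead marker Itgam was present in all pools, at 149, 176 and 120 CPM in KO pools and 141, 87.9 and 84.4 in WT pools. Some pools stood apart in cell types other than myeloid cells. The 5 erythroid genes summed to 36.2 to 84.7 CPM in KO pools and to 1876, 75.5 and 142 in WT pools, high in WT pool 1. The 7 T cell genes summed to 109, 75.8 and 189 CPM in KO pools and to 40.7, 412 and 38.1 in WT pools, high in WT pool 2. No number listed in the titles occurred in more than 1 pool. Whether the litters or days of the pools differed is not given, so p-values measure the spread between these pools.

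Antibody RNA was more abundant in every KO pool than in every WT pool. The 10 genes together made up 0.169%, 0.270% and 0.185% of gene reads in KO pools, against 0.104%, 0.113% and 0.114% in WT pools. All 10 passed the low-count filter. Of them, 9 had a positive log2 fold change (KO over WT) and Ighg1 a negative one, and their median was 1.28, beside 0.01 over all genes tested. In 7 of the 10 genes every KO pool lay above every WT pool, a pattern that 9.59% of all tested genes had, and in 0 every KO pool lay below, which 10.1% of all genes did. The genes were chosen on this contrast, so nothing is read from these shares. With edgeR's quasi-likelihood test at a Benjamini-Hochberg adjusted p of 0.05, 0 of the 10 were called, beside 0% of all tested genes called higher and 0.0127% called lower. At an unadjusted p under 0.05 edgeR had 8 of the 10 higher, beside 4.77% of all genes. At an adjusted p under 0.05 limma-voom called 0 of the 10, beside 0% of all tested genes higher and 0.00637% lower. DESeq2 called Igha, Ighd, Ighg2b, Igkc, Iglc1 and Jchain higher, beside 1.08% of the genes to which it gave an adjusted p. Without WT pool 1, edgeR called Igha, Igkc, Iglc1 and Jchain, beside 2.33% of all genes called higher. With no filter on low counts it called the same 6 as DESeq2, beside 0.479% of all genes. As the 10 genes were chosen on this contrast, nothing is read from these calls either.

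**Figure D1:**
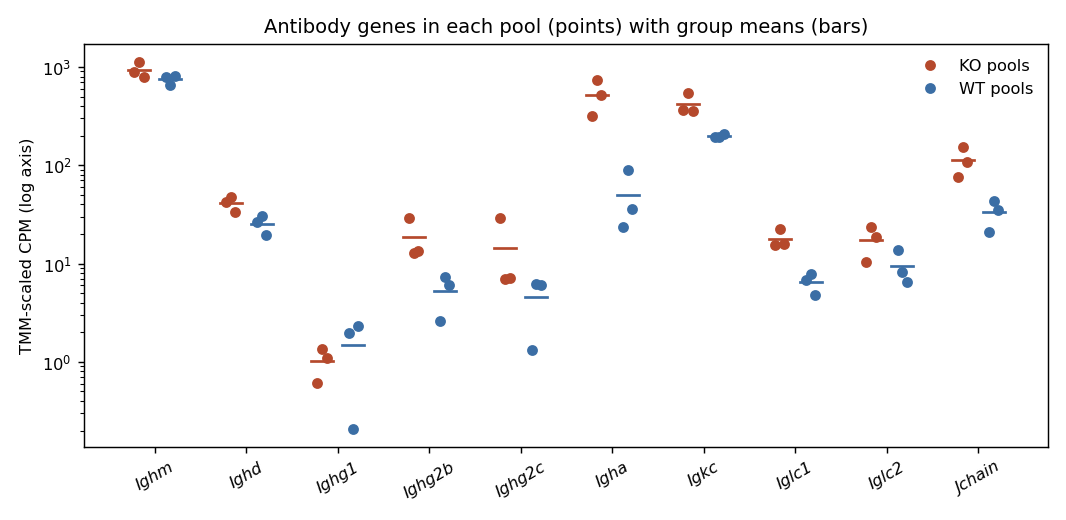
TMM-scaled CPM (log axis) of the 10 antibody genes in the 3 KO and 3 WT pools, with points for pools and bars for group means. The separation is widest for Igha, at 315 to 745 CPM in KO pools and 23.7 to 88.9 in WT pools, while the pools of Ighm, Ighg1 and Iglc2 overlap.

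Igha, the constant gene of IgA, the antibody class of mucosal secretions, differed most between the groups. The gene (ENSMUSG00000095079) spans chr12:113254830-113260236 on the minus strand of GRCm38, 162.5 kb beyond the start of Ighm and last in the row of heavy chain constant genes. Its reads numbered 8250, 18962 and 13241 in KO pools and 617, 1705 and 767 in WT pools. That came to 315, 745 and 514 CPM in KO pools, against 23.7, 88.9 and 35.7 CPM in WT pools. KO pool 2 was the highest and WT pool 1 the lowest, and the lowest KO pool was well above the highest WT pool, WT pool 2. The mean was 525 ± 215 CPM in KO pools and 49.4 ± 34.7 in WT pools (SD, n = 3 each), 10.6-fold higher, with a log2 fold change of 3.41 ± 0.54 (SE).

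Ighm, the constant gene of IgM and the first class a B cell makes, was abundant in all pools and differed little. It lies at chr12:113418558-113422730. It stood at 890, 1116 and 793 CPM in KO pools and at 791, 661 and 812 in WT pools. KO pool 3 fell among the WT pools, so the groups overlapped, and the log2 fold change was 0.31 ± 0.18 (SE). Ighd, which encodes IgD and is spliced from the same long transcript as Ighm in naive B cells, lies 6.4 kb from the start of Ighm. It stood at 42.1, 47.1 and 33.7 CPM in KO pools and at 26.2, 30.5 and 19.7 in WT pools. The Ighd groups did not overlap, although KO pool 3 and WT pool 2 came close, and the log2 fold change was 0.69 ± 0.19 (SE). The ratio of Ighm to Ighd per kb of exon was 22.96 ± 1.42 in KO pools and 31.3 ± 9.93 in WT pools (SD, n = 3 each), with overlapping pools.

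The IgG genes were scarce beside Ighm and Igha. Ighg2b, the constant gene of IgG2b, stood at 29.3, 12.8 and 13.5 CPM in KO pools and at 2.58, 7.25 and 6.05 in WT pools. Ighg2c, the C57BL/6 form of the IgG2a type, stood at 29.0, 7.03 and 7.10 CPM in KO pools and at 1.31, 6.20 and 6.10 in WT pools. Both genes were highest in KO pool 1 and lowest in WT pool 1. For Ighg2c the other KO pools were only slightly above the other WT pools. The log2 fold change was 1.82 ± 0.45 (SE) for Ighg2b and 1.67 ± 0.72 for Ighg2c. The Ighg2c value depended on KO pool 1, since it was 0.65 without that pool. Ighg2b and Ighg2c are 85.6% identical in coding sequence, and 4.15% and 5.49% of their 50-base stretches, in that order, occur in other IgG genes, so a small part of their reads could not be told apart at that length.

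Ighg1, the constant gene of IgG1, was close to the detection limit. It had 16, 34 and 28 reads in KO pools and 51, 4 and 50 in WT pools, which is 0.611, 1.34 and 1.09 CPM in KO pools and 1.96, 0.209 and 2.33 in WT pools. WT pool 2 was the lowest of all and the groups overlapped, with a log2 fold change of -0.58 ± 0.72 (SE). Of the heavy chain genes outside the 10, Ighg3 of IgG3 stood at 5.92, 10.1 and 3.88 CPM in KO pools and 4.73, 14.1 and 4.10 in WT pools (log2 fold change -0.20 ± 0.53 SE, edgeR adjusted p = 0.889). Ighe, the IgE gene, had 0 reads in every pool. A count of 0 allows up to 3 reads, or 0.109 to 0.119 CPM without TMM factors in KO pools and 0.111 to 0.169 in WT pools.

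Levels of different genes were compared per kb of exon. The order of genes depends on this choice of length, and no other was tried for it. By this measure Igkc was the most abundant antibody gene in every KO pool, ahead of Ighm and then Igha. In WT pools Ighm and Igkc held the top places, with Ighm first in pools 1 and 3 and Igkc first in pool 2. Igkc averaged 792 ± 203 CPM per kb in KO pools and 372 ± 18.5 in WT pools, and Ighm 495 ± 87.9 in KO pools and 400 ± 43.4 in WT pools (SD, n = 3 each). Igha averaged 197 ± 80.6 CPM per kb in KO pools and 18.5 ± 13.0 in WT pools. In KO pools Igha stood in the third place in all 3. It held the third place in WT pool 2 too, at 33.3 CPM per kb, while in WT pools 1 and 3, at 8.90 and 13.4 CPM per kb, it stood among the lambda genes, Ighd and Jchain. Over the WT pools these genes did not differ from Igha beyond their spread. Ighg1 was last of the 10 in every pool.

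The heavy chain balance of each pool was taken as the share of each gene in the summed heavy chain level per kb of exon, which does not depend on library scaling. Igha held 18.2%, 30.7% and 29.9% in KO pools, against 1.99%, 8.07% and 2.89% in WT pools. Ighm held 72.9%, 65.0% and 65.4% in KO pools, against 93.9%, 84.9% and 92.9% in WT pools. The shares of both genes were fully separated between the groups, with KO pool 1 and WT pool 2 nearest to each other. The difference of means was 22.0 percentage points for Igha and -22.8 for Ighm. Ighd held 2.97 ± 0.391% in KO pools and 3.07 ± 0.829% in WT pools, and the 4 IgG genes together 2.997 ± 2.141% in KO pools and 2.07 ± 1.07% in WT pools (SD, n = 3 each). Both of these smaller shares overlapped. Within the IgG genes Ighg2b took 34.8 ± 5.25% in KO pools and 21.9 ± 1.88% in WT pools, without overlap.

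**Figure D2:**
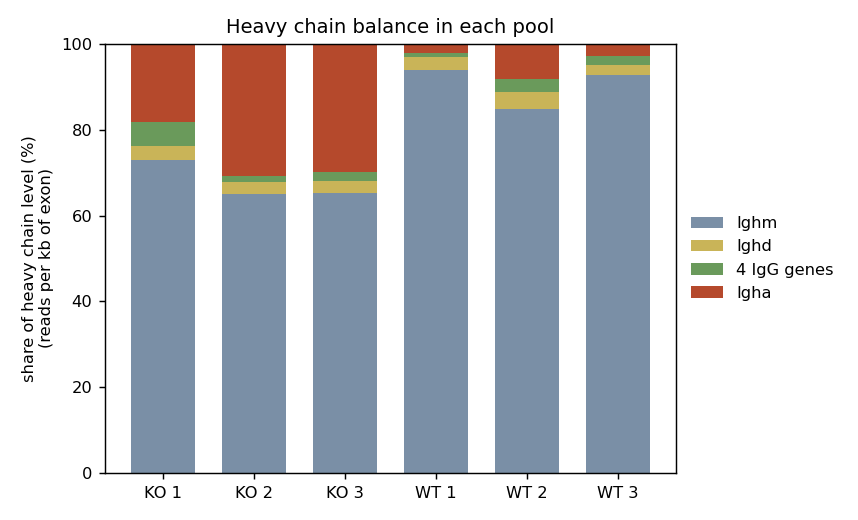
Share of each heavy chain class in the summed heavy chain level of a pool (%, reads per kb of exon), 1 bar per pool. Igha takes 18.2% to 30.7% of the KO bars and 1.99% to 8.07% of the WT bars, while the slices for Ighd and the IgG genes are thin in all bars.

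As a share of heavy chain reads with no division by length, Igha held 24.0%, 38.4% and 37.6% in KO pools. In WT pools it held 2.79%, 11.0% and 4.03%. The Wilson 95% interval was 23.6% to 24.5% in KO pool 1, the lowest of the KO pools, and 10.5% to 11.5% in WT pool 2, the highest of the WT pools. The intervals cover counting error only, and they were narrow beside the spread between pools of 1 group. The summed heavy chain level was 734 ± 153 CPM per kb in KO pools and 441 ± 25.8 in WT pools (SD, n = 3 each). Of that difference of 293 CPM per kb, Igha made up 178 and Ighm 94.7.

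The kappa gene Igkc, which supplies the light chain of most mouse antibodies, was higher in every KO pool. It lies at chr6:70726435-70726966 on the plus strand. Igkc stood at 361, 546 and 357 CPM in KO pools and at 192, 193 and 209 in WT pools. KO pool 2 was the highest, and KO pool 3, the lowest KO pool, was still above all WT pools, which lay close together. The log2 fold change was 1.09 ± 0.19 (SE). Summed over light chain genes, the level was 1.15, 1.26 and 1.18 times that of the heavy chain genes per kb in KO pools, against 0.936, 0.980 and 0.924 times in WT pools. Igkc has 532 exon and 320 coding bases, and Ighm 1886 and 1486. The size of this ratio, and its place above or below 1, therefore depends on the length used.

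The lambda genes lie on chromosome 16. Iglc2 and Iglc3, which is not among the 10, are 96.2% identical in coding sequence, whereas Iglc1 is 73.3% identical to Iglc2. Matching 90-base stretches of the coding sequence are shown (GRCm38, minus strand, 5′ to 3′). They were picked where the 3 genes differ at the most positions, so other stretches separate them less well or no better. Capitals mark the 27 positions at which the 3 genes are not all alike. They lie at chr16:19061899-19061988 for Iglc1, chr16:19198680-19198769 for Iglc2 and chr16:19065509-19065598 for Iglc3.
Iglc1: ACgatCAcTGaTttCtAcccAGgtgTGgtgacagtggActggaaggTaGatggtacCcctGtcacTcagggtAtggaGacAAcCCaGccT
Iglc2: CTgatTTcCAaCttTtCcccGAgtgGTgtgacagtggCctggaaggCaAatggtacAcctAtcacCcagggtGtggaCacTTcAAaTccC
Iglc3: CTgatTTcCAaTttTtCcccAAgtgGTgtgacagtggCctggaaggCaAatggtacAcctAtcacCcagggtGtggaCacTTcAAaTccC
Iglc1 differed from Iglc2 at 27 of these positions, and Iglc2 from Iglc3 at 2. In their transcripts 7.65% of the 50-base stretches of Iglc2 and 22.3% of those of Iglc3 were shared with another gene. For Iglc1 it was 0%, so the split between Iglc2 and Iglc3 is the less certain one.

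Iglc1 stood at 15.3, 22.6 and 15.8 CPM in KO pools and at 6.81, 7.82 and 4.84 in WT pools. Iglc2 stood at 10.4, 23.7 and 18.6 CPM in KO pools and at 13.9, 8.13 and 6.57 in WT pools. The Iglc1 groups were apart, while for Iglc2 KO pool 1 lay below WT pool 1. For Iglc1 the log2 fold change was 1.46 ± 0.24 (SE), and for Iglc2 0.88 ± 0.36. Iglc3 stood at 7.49, 13.6 and 9.43 CPM in KO pools and at 9.08, 5.42 and 6.19 in WT pools (log2 fold change 0.55 ± 0.28 SE, edgeR adjusted p = 0.399). Iglc4 had 3, 5 and 1 reads in KO pools and 0 in WT pools, too few to be tested.

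The balance of kappa and lambda was alike in size in both groups. Igkc held 90.9%, 89.6% and 88.6% of the light chain level per kb in KO pools and 86.2%, 89.5% and 91.8% in WT pools. The pools overlapped, and the mean was 89.7 ± 1.17% in KO pools and 89.2 ± 2.82% in WT pools (SD, n = 3 each). Within the light chains, Iglc1 took 4.49 ± 0.137% in KO pools and 3.45 ± 0.893% in WT pools, without overlap.

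Jchain, the linker of IgA dimers and IgM pentamers, lies at chr5:88519809-88527891 on the minus strand. It had 1999, 3900 and 2755 reads in KO pools and 546, 830 and 755 in WT pools. This gave 76.4, 153 and 107 CPM in KO pools, against 21.01, 43.3 and 35.2 in WT pools. All KO pools were above all WT pools, and within each group the pools ranked for Jchain as they did for Igha, with pool 2 highest and pool 1 lowest. The log2 fold change was 1.76 ± 0.32 (SE).

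Jchain did not keep a fixed ratio to the heavy chains it joins. The log2 ratio of Jchain to Igha per kb was -1.96, -2.20 and -2.18 in KO pools and -0.09, -0.96 and 0.06 in WT pools. Every KO pool was lower, with means of -2.11 ± 0.13 in KO pools and -0.33 ± 0.55 in WT pools (SD, n = 3 each). The log2 ratio of Jchain to Ighm was -3.96, -3.28 and -3.31 in KO pools and -5.65, -4.35 and -4.95 in WT pools. Here every KO pool was higher, by 1.47 between the means. Against Igkc the log2 ratio of Jchain was -4.18 ± 0.27 in KO pools and -4.88 ± 0.52 in WT pools (SD, n = 3 each), with overlap.

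How the 10 genes vary with each other was described by the SD of their log2 ratio over the 6 pools, where a small SD means a near constant ratio. Igkc kept the steadiest ratios, with an SD of 0.35 against Ighd and likewise 0.35 against Iglc1. Ighm and Ighd had an SD of 0.37, and Ighg2b and Ighg2c, both high in KO pool 1, had 0.47. Igha had no close partner among the 10. Its smallest SD was 1.04, against Jchain, and against Ighm it was 1.94. The 6 pools differ in group, so these values also hold the difference between KO and WT.

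Variable segments, which are counted apart from the constant genes, also had more reads in KO pools. The 185 Ighv genes summed to 203, 309 and 214 CPM in KO pools and 99.5, 102 and 120 in WT pools. The 160 Igkv genes summed to 264, 380 and 269 CPM in KO pools and 132, 128 and 160 in WT pools. The 3 Iglv genes summed to 20.1, 32.8 and 29.6 CPM in KO pools and 11.9, 9.85 and 8.89 in WT pools. All 3 sums were separated between the groups and highest in KO pool 2, as was Igkc. The ratio of means was 2.25 for Ighv, 2.17 for Igkv and 2.70 for Iglv, beside 2.13 for Igkc.

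Most other genes of B cells had positive log2 fold changes, smaller than those of Igha and Jchain, and none was called by edgeR. Of 21 mature B cell genes, 19 had a positive log2 fold change with a median of 0.56. In 11 every KO pool lay above every WT pool, beside 9.59% of all tested genes. None passed the edgeR test (0 of 21). At an unadjusted p under 0.05 edgeR had 13 higher and 1 lower, beside 4.77% and 10.6% of all genes. DESeq2 called 4 higher, beside 1.08% of all genes given an adjusted p. This list and those below were chosen with earlier results of these data known, so nothing is read from such shares. Cxcr5, the receptor that draws B cells to follicles, averaged 53.2 ± 8.81 CPM in KO pools and 34.4 ± 4.68 in WT pools (log2 fold change 0.63, edgeR adjusted p = 0.192). Blk, a B cell kinase, averaged 34.4 ± 9.06 CPM in KO pools and 20.7 ± 1.92 in WT pools (0.73, edgeR adjusted p = 0.197). Cd22, a brake on the B cell receptor, averaged 85.0 ± 16.1 CPM in KO pools and 57.5 ± 8.94 in WT pools (0.56, edgeR adjusted p = 0.227), and Cd79a, a signalling chain of that receptor, 110 ± 26.7 in KO pools and 71.1 ± 12.2 in WT pools (0.63, edgeR adjusted p = 0.228). Ebf1, a transcription factor of the B lineage that other cells also express, lay the other way, at 34.9 ± 2.32 CPM in KO pools and 46.8 ± 8.71 in WT pools (-0.42, edgeR adjusted p = 0.261).

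To set the antibody genes against these B cell genes, each gene's level was divided by the geometric mean of the 21 in the same pool. That mean was itself higher in every KO pool, by 0.52 on the log2 scale, and some of the 21 genes, such as Ebf1, are also expressed by cells other than B cells. Igha relative to it stood at 2.75, 3.54 and 3.44 (log2) in KO pools and at -0.87, 1.31 and 0.19 in WT pools. Jchain stood at 1.05 ± 0.30 in KO pools and -0.20 ± 0.73 in WT pools, and Igkc at 2.99 ± 0.10 in KO pools and 2.44 ± 0.30 in WT pools (log2, SD, n = 3 each). Igha, Jchain, Igkc and Iglc1 stayed above in every KO pool on this scale, by 3.03, 1.25, 0.55 and 0.95 between the means. Ighm was -0.22 and Ighd 0.18 between the means, and for both the pools overlapped. Whether B cells were more numerous in the KO pools was not tested, since no cells were counted.

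**Figure D3:**
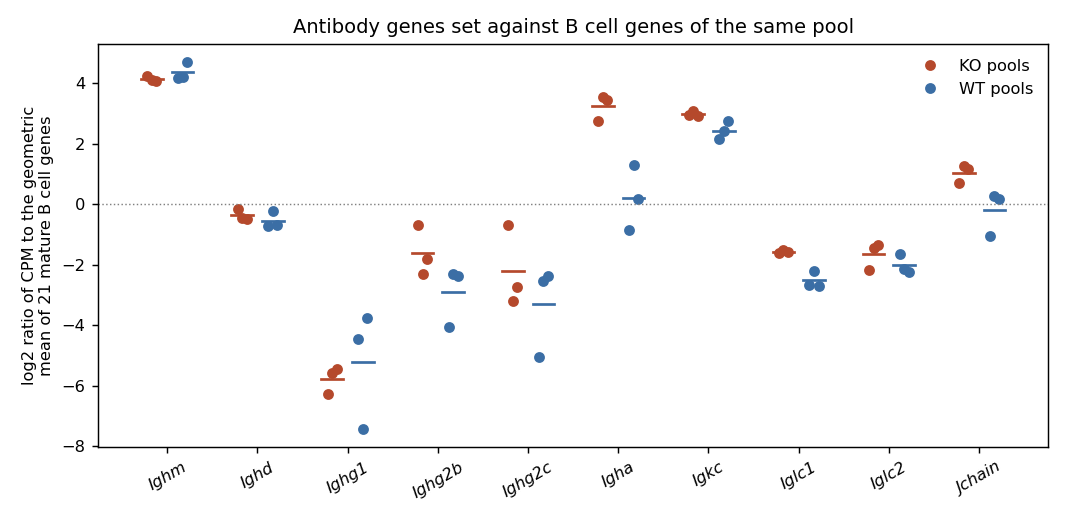
Log2 ratio of each antibody gene to the geometric mean of 21 mature B cell genes of the same pool, with points for the 3 KO and 3 WT pools and bars for group means. Igha lies at 2.75 to 3.54 in KO pools and at -0.87 to 1.31 in WT pools, while Ighm and Ighd overlap.

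Plasma cell genes did not all lie one way. Of 17 on the list, 16 were tested, 13 had a positive and 3 a negative log2 fold change, and the median was 0.35. In edgeR 0 passed. At an unadjusted p under 0.05 edgeR had 5 higher and 1 lower, beside 4.77% and 10.6% of all tested genes. DESeq2 called 2 higher, Derl3 and Creld2, beside 1.08% of all genes given an adjusted p. Derl3, a factor of protein disposal in the endoplasmic reticulum (ER) that secretory cells express, averaged 3.17 ± 0.777 CPM in KO pools and 0.990 ± 0.399 in WT pools (log2 fold change 1.68, edgeR adjusted p = 0.180). Creld2, an ER stress protein, averaged 54.6 ± 3.89 CPM in KO pools and 34.6 ± 3.19 in WT pools (0.66, edgeR adjusted p = 0.152), and Xbp1, the transcription factor of the secretory programme, 254 ± 19.9 in KO pools and 196 ± 18.99 in WT pools (0.38, edgeR adjusted p = 0.243). The surface marker Sdc1 (CD138) lay the other way, at 23.2 ± 2.90 CPM in KO pools and 30.8 ± 0.879 in WT pools (-0.41, edgeR adjusted p = 0.232). Other cells of the heart also express Sdc1, and Creld2 and Xbp1 are likewise not particular to plasma cells. Prdm1, the plasma cell regulator, overlapped between groups, at 44.3 ± 3.67 CPM in KO pools and 45.6 ± 9.57 in WT pools, and Mzb1, a chaperone of IgM assembly, was low, at 1.54 ± 0.210 CPM in KO pools and 0.937 ± 0.271 in WT pools.

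Most ER genes that fold and export secreted proteins had small positive log2 fold changes, and none was called by edgeR. Of 15, 14 had a positive log2 fold change with a median of 0.41. In 12 every KO pool lay above every WT pool, beside 9.59% of all tested genes. In edgeR 0 passed, with 9 higher at an unadjusted p under 0.05, beside 4.77% of all genes. DESeq2 called 4 higher, beside 1.08% of all genes given an adjusted p. Manf, an ER stress factor, averaged 140 ± 5.51 CPM in KO pools and 93.7 ± 8.44 in WT pools (0.57, edgeR adjusted p = 0.158). Hyou1, an ER chaperone, averaged 218 ± 14.9 CPM in KO pools and 150 ± 11.0 in WT pools (0.54, edgeR adjusted p = 0.175). The next by p were Pdia4 (0.53), a disulfide isomerase, and Sdf2l1 (0.79), a chaperone partner. Macrophages use these genes too, and their levels are those of the whole preparation.

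Receptors that bind antibodies were measured in the same pools. Of 11, 10 were tested, and all 10 had a positive log2 fold change with a median of 0.42. In edgeR 0 passed, with 3 higher at an unadjusted p under 0.05, beside 4.77% of all tested genes, and DESeq2 called 0. The 3 were Fcgr1, Fcer2a and Fcmr, and both Fcer2a and Fcmr are also among the 21 mature B cell genes above. Fcgr1, the high-affinity IgG receptor of macrophages, averaged 134 ± 5.33 CPM in KO pools and 89.3 ± 24.7 in WT pools (0.59, edgeR adjusted p = 0.237). It was the only 1 of the 10 whose KO pools all exceeded its WT pools, beside 9.59% of all tested genes. Fcer2a (0.75) and Fcmr (0.52), receptors for IgE and IgM on B cells, and Fcer1g (0.44), the signalling chain of Fc receptors, overlapped. Pigr, which carries IgA and IgM with J chain across epithelia, was near 1 CPM, at 1.22 ± 0.553 in KO pools and 1.13 ± 0.921 in WT pools (0.12, edgeR adjusted p = 0.945). Without WT pool 1, 7 of the 10 were called higher by edgeR, beside the 2.33% of all genes given above, and the median was 0.70.

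Factors that keep plasma cells alive or direct switching to IgA gave a mixed picture. Of 12, 9 were tested, 6 positive and 3 negative, with a median of 0.11. In edgeR 0 passed, and DESeq2 called Cxcl13 higher and Cxcl12 lower, as did edgeR at an unadjusted p under 0.05. Of all genes given an adjusted p, DESeq2 called 1.08% higher and 4.14% lower. At that unadjusted p edgeR had 4.77% of all genes higher and 10.6% lower. Cxcl12, a chemokine that holds plasma cells in their niche, averaged 116 ± 24.3 CPM in KO pools and 245 ± 72.2 in WT pools (-1.08, edgeR adjusted p = 0.180). Cxcl13, the chemokine that attracts B cells through Cxcr5, averaged 58.3 ± 9.49 CPM in KO pools and 23.2 ± 15.2 in WT pools (1.32, edgeR adjusted p = 0.227). For both chemokines the groups did not overlap, as for 9.59% (KO above) and 10.1% (KO below) of all tested genes. Tgfb1, the cytokine that directs switching to IgA, overlapped, at 300 ± 20.2 CPM in KO pools and 277 ± 44.9 in WT pools (0.11, edgeR adjusted p = 0.764). Il6 (-0.46) and Aldh1a2 (0.20), which makes retinoic acid, overlapped as well.

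**Figure D4:**
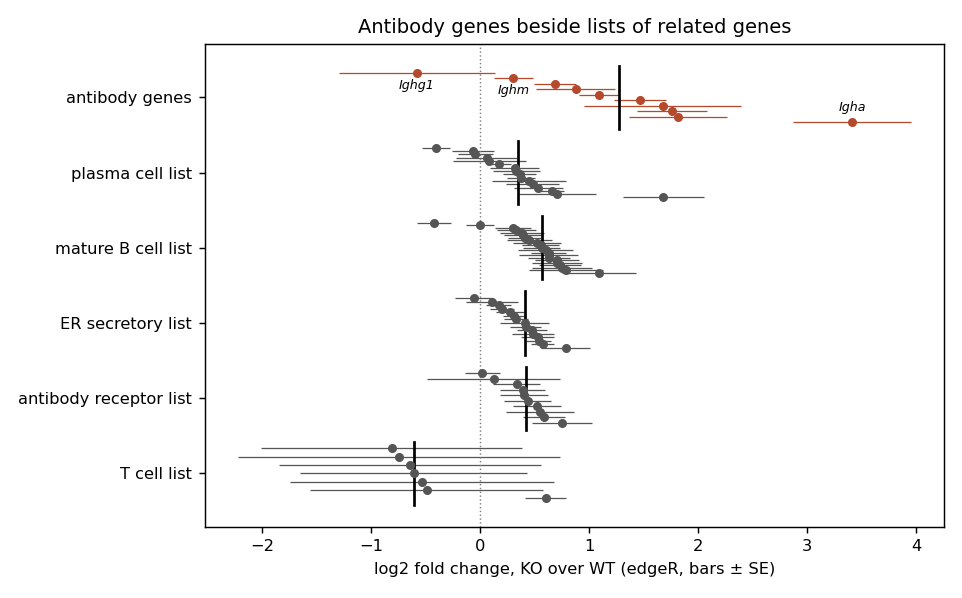
Log2 fold change (KO over WT, bars ± SE) of the antibody genes and of 5 lists of related genes, with 1 point per gene and a vertical bar at each median. The antibody genes have a median of 1.28, and the plasma cell, B cell, ER and antibody receptor lists have medians from 0.35 to 0.56. The macrophage list, which is not drawn, has a median of 0.43, within that range. Fcer2a and Fcmr are on both the B cell and the antibody receptor list. The T cell list has one of -0.61, which is 2.42 without WT pool 2.

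Markers of other cell types also differed in level between the pools. All 7 macrophage genes had positive log2 fold changes and summed to 10160 to 11000 CPM in KO pools and 5388 to 10190 in WT pools. All 5 endothelial genes were lower in every KO pool than in every WT pool, beside 10.1% of all tested genes. They summed to 602 to 788 CPM in KO pools and 1109 to 1897 in WT pools. DESeq2 called all 5 lower, beside 4.14% of all genes given an adjusted p, while edgeR called 0. The 5 fibroblast genes summed to 1054 to 1548 CPM in KO pools and 1370 to 4512 in WT pools. For 6 of the 7 T cell genes the log2 fold change was negative. Their median of -0.61 rested on WT pool 2. Without that pool the median was 2.42, and with limma-voom it was 0.77. No listed gene of these types was at 0. Their part in the antibody gene differences was not tested.

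The genes most alike in pattern were those with the smallest SD of log2 ratio over the 6 pools. This SD also holds the difference between KO and WT, on which the 10 genes were chosen. Genes with a like difference are therefore favoured, and no shared cell type is read from them. They were sought among 13683 genes at a mean of at least 1 CPM and with reads in every pool, with the 10 genes and all immunoglobulin segments left out. For Igha they were H2-M2, Serpina3h, Lyz1, Saa3 and Serpina3f, but even the first had an SD of 1.08, so none of these kept a constant ratio to Igha. H2-M2, a class I-like histocompatibility gene, stood at 11.0, 14.1 and 18.98 CPM in KO pools and 2.81, 1.62 and 2.75 in WT pools. Lyz1, the near-identical copy of Lyz2, stood at 879, 1189 and 861 CPM in KO pools and 251, 114 and 109 in WT pools, and the split of reads within that gene pair is uncertain. For Jchain they were Derl3 (SD 0.38), Tagap1, Serpina3f, Tmem181b-ps and Il12b. Within the KO pools Derl3, the ER gene named above, ranked as Jchain did. Within the WT pools it did not, at 0.693, 0.834 and 1.44 CPM. For Igkc they were Gna15 (SD 0.18), Dnajb13, Gpr55, Wdfy1 and Spns3. For Ighm they were Supt7l (SD 0.05), Fam3c, Taf6, Atg5 and Alg8, genes that, like Ighm, differed little between the groups.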

How the data were processed

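RNA was measured in 6 libraries, 3 KO and 3 WT, each from pooled hearts. The authors deposited raw counts, whole numbers of reads for each Ensembl gene, without normalization. The submitters' processing notes name STAR, HTSeq, DESeq2 and the build GRCm38. Tool versions, annotation release, read length and strandedness of counting are not stated in the labels. Libraries were made with a directional kit, per the labels' protocols. Counters that name no gene entered neither library sizes nor tests. Of all counted reads 5.90% to 8.62% matched no annotated feature used for counting and 1.49% to 1.72% were ambiguous. A further 7.58% to 8.67% aligned to more than 1 place and were left uncounted, so near-identical segments can be undercounted.

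Of 55487 identifiers, 55141 had a symbol. Positions, exon lengths and sequences are from GENCODE M21 of GRCm38, which holds 55227 of the identifiers. The edgeR quasi-likelihood F test (edgeR 4.0.16, R 4.3.3) compared KO with WT over 15707 genes kept by filterByExpr (minimum count 10), with TMM scaling, two-sided p-values, Benjamini-Hochberg adjustment over all genes and a threshold of 0.05. The SE is the log2 fold change divided by the root of F. The common biological coefficient of variation was 0.239. Shares and ratios used CPM per kb of summed exon length. For the SD of log2 ratios between the 10 genes 0.5 was added to the reads. Nothing was added for the other ratios given. Intervals are Wilson intervals at 95%, and they and the limit of 3 reads for a count of 0 cover counting error only.

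The 10 genes and the 14 gene lists were chosen with earlier results of these data known. Named are the 10 genes, the other immunoglobulin constant genes, up to 4 genes per list with the smallest p at a mean of at least 1 CPM, defining cell type markers, and the 5 genes most alike to Igha, Ighm, Igkc and Jchain. Tgfb1 and Ebf1 were named outside this rule, after their values were seen. Some list genes are not reported here. Same-numbered KO and WT pools deviated with correlations of 0.128, -0.154 and 0.024. With 3 pools a group these cannot show or exclude a pairing. The labels name none, so the main fit did not pair the pools. Alternatives were DESeq2 1.42.0, limma-voom (limma 3.58.1), other scalings, no filter, a mean of at least 5 CPM, the replicate block, each pool left out in turn, and shares by reads, by coding length or over fewer genes. The procedure was tested on simulated data. Figures were drawn with matplotlib 3.10.9.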

Additional observations from a re-analysis of the deposited data

How the results depend on the processing

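The direction of the log2 fold change of each of the 10 antibody genes held in all 14 alternatives (13 for Ighg1), between 3.08 and 4.14 for Igha, 0.16 and 0.41 for Ighm, 0.87 and 1.20 for Igkc and 1.47 and 1.99 for Jchain. Counts of calls moved. DESeq2 called 167 genes higher and 642 lower, among them 6 antibody genes higher, and 11 list genes higher and 10 lower. With no filter on low counts edgeR called 139 higher and 643 lower, with 6 antibody genes higher, and 10 list genes higher and 14 lower. With limma-voom 0 were called higher and 1 lower. Leaving out each pool in turn gave 0 to 376 genes higher and 1 to 962 lower, 0 to 4 antibody genes higher, and 0 to 23 list genes higher and 0 to 12 lower, the highest values all without WT replicate 1. The cause of these moves was not tested.

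With a replicate block (KO and WT pools of the same number), edgeR called 2 genes higher and 1 lower. Both higher ones were antibody genes, Igha and Jchain. The antibody genes were chosen on this contrast, so nothing is read from these calls. The T cell median of -0.61 was 1.15 with this block. Whether the numbers mark pools handled together is not given, and correlations over 3 pools a group cannot show it. KO pool 1 deviated most with WT pool 1 (correlation 0.128). KO pool 2 did so with WT pool 3 (0.118) and KO pool 3 with WT pool 2 (0.158).

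The Igha share difference of 22.0 percentage points was 30.04 per kb of coding sequence, and the Ighm share difference of -22.8 was -27.6 by reads and -29.8 per kb of coding sequence. Without each pool in turn they ranged from 19.8 to 26.0 and from -25.6 to -21.1. The kappa share difference of 0.56 changed sign without KO replicate 1 (-0.05), without WT replicate 1 (-0.92) and with Iglc1 and Iglc2 as the only lambda genes (-0.44), all within the spread between pools. Genes near 0 changed sign when a pool was left out: over those fits the log2 fold change ran from -0.63 to 0.58 for Ighg3, from -0.30 to 1.00 for Pigr and from -0.15 to 0.15 for Prdm1. With 3 pools a group and Ighg1 at 4 to 51 reads, small differences in scarce genes were not detectable at this depth.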

Other observations

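The genes of germinal centres, where B cells mutate and switch their antibody genes, showed no called difference. Of 8 listed, 6 were tested, 4 had a positive and 2 a negative log2 fold change, and 0 passed the edgeR test, with 0 at an unadjusted p under 0.05 and 0 called by DESeq2. Bcl6, the germinal centre regulator, averaged 81.7 ± 10.3 CPM in KO pools and 71.4 ± 8.57 in WT pools (SD, n = 3 each; log2 fold change 0.19, edgeR adjusted p = 0.534).

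Of 5 genes of B-1 cells, the innate-like B cells of body cavities, 4 had a positive log2 fold change and 0 passed in edgeR. At an unadjusted p under 0.05 edgeR had 1 higher, beside 4.77% of all tested genes, and DESeq2 called 0. Bhlhe41, a B-1 regulator, averaged 20.9 ± 5.33 CPM in KO pools and 18.3 ± 3.23 in WT pools (0.20, edgeR adjusted p = 0.719). Of 5 genes of plasmacytoid dendritic cells, the interferon-producing dendritic cells, 4 were tested and 3 had a positive log2 fold change. In edgeR 0 passed, with 1 higher at an unadjusted p under 0.05, beside the same 4.77% of all genes, and 0 called by DESeq2. Their summed level was 38.3, 34.0 and 66.1 CPM in KO pools and 28.1, 132 and 15.4 in WT pools. Most of the WT pool 2 sum was Ccr9, a chemokine receptor that T cells also express, at 112.5 CPM.

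Igha relative to Ighm varied within a group as well as between groups. The ratio per kb was 0.250, 0.472 and 0.458 in KO pools and 0.0212, 0.0951 and 0.0311 in WT pools, so WT pool 2 had more than the other WT pools and KO pool 1 less than the other KO pools. Within the KO pools Ighg2b and Ighg2c did not rank as Igha did, since both were highest in KO pool 1, the KO pool with the least Igha. Within the WT pools they ranked as Igha did, with WT pool 2 highest and WT pool 1 lowest. No explanation for these patterns was tested.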
